A study of Mus musculus with 24 samples.

Results

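The CDK inhibitors and the pocket proteins were followed through the differentiation of C2C12 cells, an established line of mouse skeletal myoblasts. The 10 genes were the CIP/KIP inhibitors Cdkn1a, Cdkn1b and Cdkn1c, the INK4 inhibitors Cdkn2a, Cdkn2b, Cdkn2c and Cdkn2d, and the pocket proteins Rb1, Rbl1 and Rbl2. Every probe set whose annotation names one of these genes alone was taken, which gave 17 of the 45101 probe sets of the table and 10 of its 18193 named genes. RNA was measured on 24 Affymetrix arrays, 3 for each of 8 time points. On Day -1 the myoblasts were at 50% confluency and on Day 0 at 90% confluency, both in growth medium with 10% serum. Day 0.25, 6 hours after differentiation was induced, and Day 1, Day 2, Day 3, Day 4 and Day 5 were cultures in reduced serum, given as 2% in the sample labels and as another value in the paper. The labels give no other treatment. Nothing in the labels says whether the 3 replicates were separate cultures, and the p-values therefore describe the spread between the arrays alone.

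CDK inhibitors bind cyclins and their kinases and hold cells back from DNA replication. The CIP/KIP proteins act on complexes of several cyclins, above all those of Cdk2, whereas the INK4 proteins bind Cdk4 and Cdk6. The pocket proteins bind E2F factors and repress E2F target genes until cyclin-dependent kinases phosphorylate them. Myoblasts leave the cell cycle for good before they fuse, and p21, the product of Cdkn1a, and pRB, the product of Rb1, are the textbook examples of this exit in muscle.

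The values are probe set intensities on a linear scale. Each array was scaled by the authors to a common trimmed mean, so a value is relative to the other RNAs of the same array. Intensities of different probe sets depend on their probes and were not set against each other. Differences are given on the log2 scale as the later minus the earlier time point, with the standard error of limma's fit, and a change passed at a Benjamini-Hochberg adjusted p under 0.05 over all probe sets tested. Within a time point, Pearson's r between log2 intensities of its arrays lay between 0.962 and 0.996, with the lowest mean r for Day 2 replicate 2. The myotube markers Myog, Ckm, Myh3, Acta1, Actn2 and Tnnt3 had a summed mean intensity of 1062 on Day -1. The sum was 9846 on Day 0 and 8415 on Day 0.25. It reached 20668 on Day 1 and lay between 37976 and 45101 at the 4 later time points. The myoblast markers Myod1, Myf5, Des and Cdh15 summed to 4413 to 7118 on an array. The 14 measured markers of adipocytes, osteoblasts, smooth muscle, macrophages and endothelium were all below 100 on every array, with 12.3 as the highest intensity. In RNA of a whole culture, fewer cells of a type and less RNA per cell cannot be told apart.

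Of the 17 probe sets, 10 reached a mean of 100 at a time point and were tested, and they covered 7 of the 10 genes. Cdkn1c, Cdkn2a and Cdkn2b each had 1 probe set, and none of these rose above the low end of the scale. Cdkn1c, an imprinted gene that codes for p57, lay between 2.30 and 5.09 over the 24 arrays. Cdkn2a, which codes for p16 and, in another reading frame, for the p53 activator ARF, lay between 1.85 and 1.92. Cdkn2b, the gene of p15, lay between 2.88 and 3.11. Such intensities show only that no signal was detectable with these probes, not that the RNA was absent. The other probe sets that were not tested were a dimmer one of Rb1, with a highest array of 2.79, and 3 of Rbl1, with highest arrays of 62.1, 2.41 and 1.13.

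**Figure D1:**
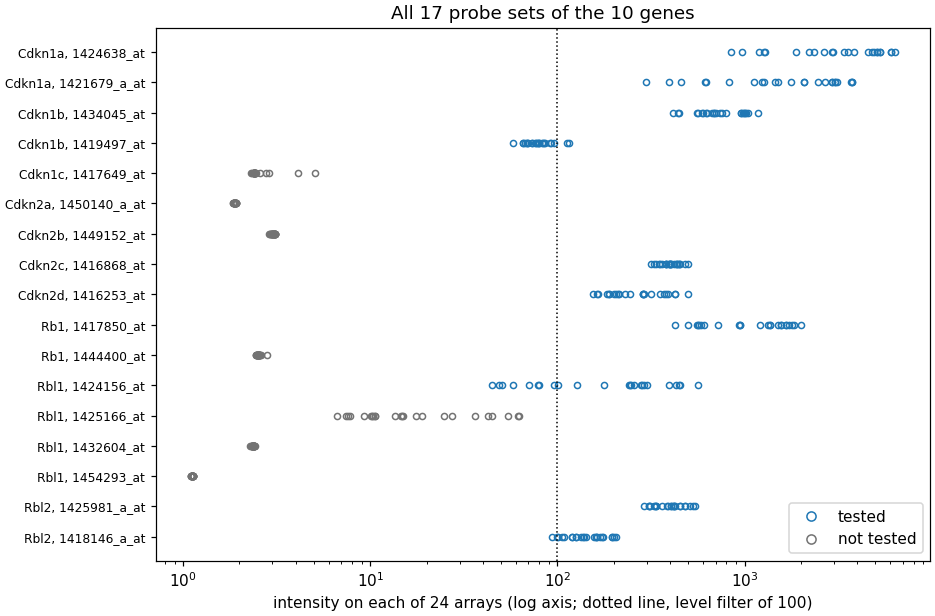
Intensity of each of the 17 probe sets on the 24 arrays, with intensity on a log axis and 1 point per array; the dotted line is the level of 100 used as a filter. Blue probe sets were tested, and the grey ones, with Cdkn1c, Cdkn2a and Cdkn2b among them, stayed below 100 on every array.

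Over the 8 time points 9 of the 10 tested probe sets changed by limma's F test, where 88.8% of all tested probe sets did. The share among the members is close to that background, so it is no result about them. Neighbouring intervals share the arrays of the day between them, so that a high or low array moves both, in opposite directions. Between Day 0 and Day -1, 3 member probe sets were higher and 2 lower, against 23.3% higher and 21.7% lower among all tested. Between Day 0.25 and Day 0, 1 was higher and 3 lower, against 22.4% and 20.9% of all. In each of these counts 1 call, higher on Day 0, is the dim probe set of Cdkn1b, which passed the level filter through Day 0 alone, so nothing is read from it. Between Day 1 and Day 0.25, 4 probe sets of 3 genes were higher and 0 lower, with 4 at an unadjusted p under 0.05. The background was 11.6% higher and 15.4% lower. Between Day 2 and Day 1, 2 of the 9 tested were higher and 2 lower, against 19% and 17.3%. Between Day 3 and Day 2 only Rbl1 passed, lower on Day 3, against 3.23% higher and 2.96% lower among all. Between Day 4 and Day 3 limma called 0 members, with 1 at an unadjusted p under 0.05, where 0.473% of all were higher and 0.663% lower. That background split depended on scaling, since 41.7% of all calls were higher on Day 4 as deposited and 52.5% after quantile normalization. The majority of all calls also changed direction with this scaling for Day 1 against Day 0.25, with 42.9% higher as deposited and 51.1% after it, and for Day 3 against Day 2, with 52.2% and 44.7%. Between Day 5 and Day 4 limma called 0 members, 0 of them at an unadjusted p under 0.05, where 1.38% of all were higher and 2.12% lower. Between the ends of the course, Day 5 and Day -1, 5 member probe sets were higher and 3 lower, against 31.9% higher and 38.4% lower among all. The 5 higher ones belonged to 4 genes. The median log2 difference of the tested member probe sets was 0.51 in this comparison, beside -0.08 over all tested probe sets. Cdkn1a, Cdkn1b and Rbl2 count with 2 probe sets each, and the median fell between the pair of Rbl2, at 0.34 and 0.67.

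**Figure D2:**
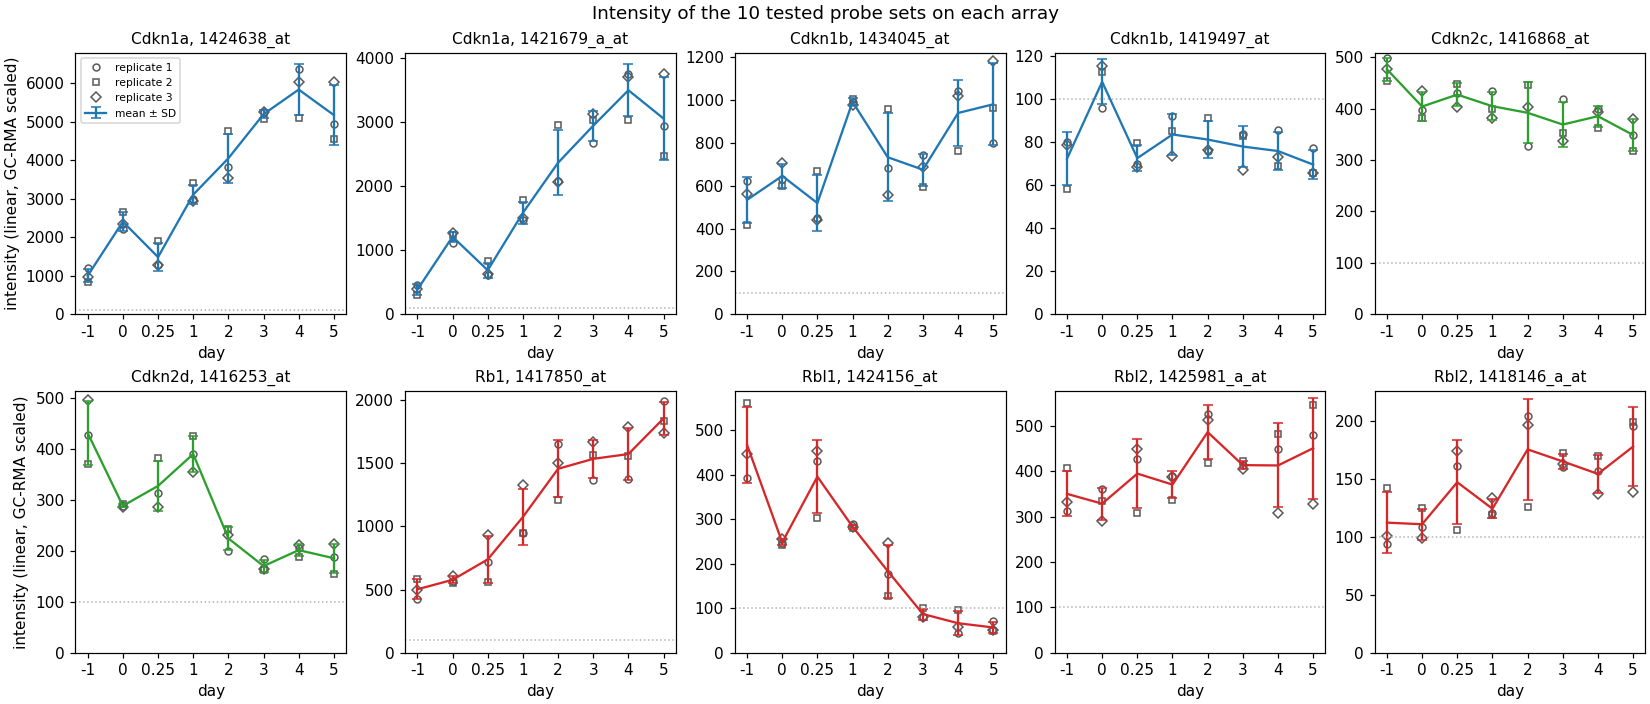
Intensity of the 10 tested probe sets (linear axes from 0) by day, with evenly spaced days that are not to scale in time. Open symbols are the 3 arrays of a time point, the line joins their means with the SD as bars, and the dotted line marks 100; Cdkn1a climbs to means of 5841 and 3493 on Day 4, while Rbl1 ends at 56.5 on Day 5.

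Cdkn1a (Entrez gene 12575) rose in 2 phases with a dip between them. Its brighter probe set had 1193, 849 and 963 on the 3 arrays of Day -1, 2204, 2670.2 and 2346 on Day 0 and 1281, 1894 and 1277 on Day 0.25. It then had 2986, 3399 and 2939.7 on Day 1, 3841, 4770.5 and 3553 on Day 2, 5262, 5082 and 5261 on Day 3, 6381, 5093 and 6049.6 on Day 4 and 4942, 4544 and 6046 on Day 5. In order of level, Day -1, Day 0.25, Day 0 and Day 1 each stood clear of the next, with Day 2 following Day 1. Above Day 2 came Day 5, Day 3 and Day 4, and their ranges overlapped with those of their neighbours, Day 2 included. On Day 0, in cells at 90% confluency still in growth medium, the mean was 2407 ± 239, against 1002 ± 176 on Day -1 (SD, n = 3 each). The log2 difference was 1.27 ± 0.16, with an adjusted p of 3.09e-06. At 6 hours after induction the gene was lower, with 1484 ± 355 on Day 0.25 and 2407 ± 239 on Day 0, a log2 difference of -0.72 ± 0.16 (adjusted p = 0.0014). It then rose 2.13-fold on Day 1 against Day 0.25 (1.09 ± 0.16, adjusted p = 6.00e-05). On Day 2 against Day 1 the difference was 0.38 ± 0.14 and missed the threshold (adjusted p = 0.0674), although the 3 arrays of Day 2 were all above those of Day 1. This probe set passed with the replicate number as a block (0.0358), after quantile normalization (0.0264) and when the prior followed intensity (0.0382). None of the later intervals passed, and Day 5 ended 5.18-fold above Day -1 (2.37 ± 0.16, adjusted p = 6.21e-11).

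The dimmer Cdkn1a probe set followed the same course. It had 457, 298 and 395 on Day -1, 1118, 1238 and 1269 on Day 0, 612, 824 and 620.1 on Day 0.25, 1462, 1779 and 1502 on Day 1, 2073, 2946 and 2066 on Day 2, 2677, 3024 and 3117 on Day 3, 3744, 3029 and 3706 on Day 4 and 2939, 2472 and 3743 on Day 5. Here too Day 0 stood above Day -1 on all arrays (1.68 ± 0.18, adjusted p = 3.83e-07), Day 0.25 below Day 0 (-0.83 ± 0.18, adjusted p = 0.00103) and Day 1 above Day 0.25 (1.21 ± 0.18, adjusted p = 5.77e-05). Unlike the brighter one it passed on Day 2 against Day 1, with 2362 ± 506 on Day 2 and 1581 ± 173 on Day 1 (0.56 ± 0.17, adjusted p = 0.0335). That call was lost without replicate 1 of Day 1 (adjusted p = 0.124), replicate 2 of Day 1 (0.0575), replicate 3 of Day 1 (0.0855) or replicate 1 of Day 2 (0.0539), and without the level filter (0.0652). Day 5 lay 7.96-fold above Day -1 (2.99 ± 0.18, adjusted p = 9.43e-12). Over the 24 arrays the log2 values of the pair of probe sets had an r of 0.996, across arrays that share their time courses.

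Cdkn1a has 2 annotated starts in RefSeq, on assembly GRCm38.p6, and the 250 bases before each are shown because this gene had the largest rise of the members. Sequences were matched by gene symbol for 8 of the 10 genes, 11 sequences in all, and Cdkn1c and Rb1 were not searched. They were searched on both strands for the E-box CANNTG, bound by MyoD and myogenin, the E2F sites TTTCCCGC, TTTCGCGC, TTTGCCGC and TTTGGCGC, the GC box GGGCGG, the CCAAT box CCAAT, and the p53 decamer, the unit that is repeated in a p53 response element. Among 32851 mouse promoter windows of this length, 66.2% held the E-box, 1.86% an E2F site, 32.7% the GC box, 33.8% the CCAAT box and 7.13% the p53 decamer. Capitals mark every match to these motifs, reading 5′ to 3′ on the strand of the gene.
Cdkn1a, start 1, chr17:29090729-29090978, plus strand: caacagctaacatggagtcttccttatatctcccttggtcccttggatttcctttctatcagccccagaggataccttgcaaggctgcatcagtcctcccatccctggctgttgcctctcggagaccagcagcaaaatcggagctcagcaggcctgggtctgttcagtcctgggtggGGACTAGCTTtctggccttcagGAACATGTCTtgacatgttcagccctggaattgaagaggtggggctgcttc
Cdkn1a, start 2, chr17:29093519-29093768, plus strand: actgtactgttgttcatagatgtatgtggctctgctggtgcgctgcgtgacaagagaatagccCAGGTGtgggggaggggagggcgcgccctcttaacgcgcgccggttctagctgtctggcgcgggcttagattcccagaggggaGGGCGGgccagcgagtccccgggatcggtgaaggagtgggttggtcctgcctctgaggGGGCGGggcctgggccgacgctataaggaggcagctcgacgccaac
The window of start 1 held 2 p53 decamers, GGACTAGCTT and GAACATGTCT, at 73 to 64 and 51 to 42 bases before the start, and no other motif of the search. The window of start 2 held 1 E-box, CAGGTG, at 187 to 182 bases before the start and 2 GC boxes at 104 to 99 and 46 to 41. The arrays do not tell which start was used, and a match of letters is a description only.

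Cdkn1b (Entrez gene 12576), the gene of p27, rose later than Cdkn1a and by less. Its brighter probe set had 624, 416 and 561 on Day -1, 630.2, 599 and 708 on Day 0, 447, 670.0 and 439 on Day 0.25 and 993, 1007 and 975 on Day 1. It had 684, 959 and 556 on Day 2, 743, 594 and 688 on Day 3, 1041, 761 and 1017 on Day 4 and 797, 963 and 1180.3 on Day 5. The arrays of Day 1, the highest mean, were tightly grouped and all above those of Day 0.25, the lowest mean, while the ranges of all neighbours in the order of levels overlapped. The mean was 992 ± 15.8 on Day 1 and 519 ± 131 on Day 0.25, a log2 difference of 0.96 ± 0.20, adjusted p = 0.00169. On Day 2 the gene had 733 ± 206, against 992 ± 15.8 on Day 1, and this difference of -0.47 ± 0.19 missed the threshold (adjusted p = 0.086). The call changed with Day 2 replicate 2 left out, where the adjusted p was 0.00209, and with the replicate number as a block it was 0.0392. On Day 5 it had 980.1 ± 192, against 534 ± 107 on Day -1, 1.84-fold higher (0.88 ± 0.20, adjusted p = 7.14e-04).

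The dim probe set of Cdkn1b did not share this pattern. It passed the filter only through Day 0, where its arrays had 96.1, 113 and 115, against 80.0, 58.2 and 78.6 on Day -1, so its differences from Day 0 are given as a description, with no test. The log2 difference was 0.59 ± 0.14 for Day 0 against Day -1 and -0.57 ± 0.14 for Day 0.25 against Day 0, with 72.6 ± 6.13 on Day 0.25. On Day 5 it had 69.6 ± 6.74 and on Day -1 72.3 ± 12.2, a difference of -0.04 ± 0.14 with a 95% interval of -0.33 to 0.24. The r between the pair of probe sets of Cdkn1b over the 24 arrays was only 0.14, so the later rise of this gene rests on its brighter probe set alone.

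Of the INK4 genes, those of p18 and p19 were measured, and both ended below their start. Cdkn2c (Entrez gene 12580), the gene of p18, had 499, 454 and 478 on Day -1, 397, 381 and 435 on Day 0, 430.2, 449 and 403 on Day 0.25, 434, 398 and 382 on Day 1, 328, 446 and 402 on Day 2, 419, 352 and 337 on Day 3, 400.1, 361 and 394 on Day 4 and 349, 317 and 381 on Day 5. Only the arrays of Day -1 stood clear of the next level, and all other neighbours in the order overlapped. On Day 5 it had 349 ± 32, against 477 ± 22.6 on Day -1 (-0.45 ± 0.11, adjusted p = 0.00111). No interval between neighbouring time points passed, and for Day 2 against Day 1 the difference was -0.06 ± 0.14 with a 95% interval of -0.37 to 0.26, which leaves room for a change of up to 0.37 on the log2 scale downward.

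Cdkn2d (Entrez gene 12581), the gene of p19, fell in 2 steps with a return between them. It had 427, 371 and 496 on Day -1, 288, 291 and 286 on Day 0, 314, 382 and 286 on Day 0.25 and 390.0, 426 and 354 on Day 1. From Day 2 on it was lower on every array, with 199.9, 243 and 230.4 on Day 2, 183, 163 and 164 on Day 3, 205, 188 and 211 on Day 4 and 189, 155 and 213 on Day 5. The highest array of the last 4 time points, at 243, was below the lowest of the first 4, at 286. The mean was 288 ± 2.69 on Day 0 and 431 ± 62.7 on Day -1 (-0.57 ± 0.13, adjusted p = 0.00138). Day 0.25 against Day 0 (0.17 ± 0.13, adjusted p = 0.283) and Day 1 against Day 0.25 (0.26 ± 0.13, adjusted p = 0.141) did not pass singly. Day 2 then had 224 ± 22.1 and Day 1 390.1 ± 36, 1.74-fold lower on Day 2 (-0.80 ± 0.12, adjusted p = 0.00288), and Day 5 was 2.33-fold below Day -1 (-1.22 ± 0.13, adjusted p = 5.52e-08). Both of these calls, and that of Day 0 against Day -1, held in every alternative and with each array left out. Cdkn2d was thus lower, and Cdkn1a higher, on Day 5 than on Day -1, although both code for inhibitors of cyclin-dependent kinases.

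Rb1 (Entrez gene 19645) rose over the course. Its tested probe set had 424, 585 and 496 on Day -1, 569, 554 and 607 on Day 0, 722, 562 and 931 on Day 0.25 and 948, 947 and 1329 on Day 1. It had 1657, 1211 and 1501 on Day 2, 1369.8, 1567 and 1669.7 on Day 3, 1375, 1560.4 and 1785 on Day 4 and 1992, 1839 and 1737 on Day 5. The order of its means was the order of time, and the only neighbours whose arrays did not overlap were Day 0.25 and Day 1. On Day 5 it had 1856 ± 128, against 502 ± 80.8 on Day -1, 3.72-fold higher (1.90 ± 0.17, adjusted p = 6.20e-09). Between neighbouring time points only Day 1 against Day 0.25 passed, with 1075 ± 220.2 on Day 1 and 738 ± 185 on Day 0.25 (0.55 ± 0.17, adjusted p = 0.0233). That call was lost without replicate 1 of Day 0.25 (adjusted p = 0.0658), replicate 2 of Day 0.25 (0.107) or replicate 3 of Day 1 (0.134), in a fit to the 6 arrays alone (0.083) and without the level filter (0.0681). For Day 2 against Day 1 the difference of 0.45 ± 0.18 missed the threshold (adjusted p = 0.0844). It passed in the fit to all 24 arrays (0.0427), with the replicate block (0.0395), without replicate 3 of Day 1 (0.0321) and without replicate 2 of Day 2 (0.0196).

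Rbl1 (Entrez gene 19650), the gene of p107, moved the other way. Its tested probe set had 394, 561 and 447 on Day -1, 246, 242 and 255 on Day 0, 431, 303 and 454 on Day 0.25 and 288, 279 and 282 on Day 1. It had 177, 127 and 245 on Day 2, 79.2, 101 and 80.1 on Day 3, 44.6, 96.1 and 57.7 on Day 4 and 70.4, 48.6 and 50.5 on Day 5. No array from Day 3 on reached the lowest array of Day 2, at 127, and 1 of these 9 arrays was above 100. Day 5 had 56.5 ± 12, against 467 ± 85.7 on Day -1, 8.30-fold lower (-3.05 ± 0.25, adjusted p = 9.99e-10). The gene was already lower on Day 0 than on Day -1 (-0.90 ± 0.25, adjusted p = 0.00589), and it was higher on Day 0.25 than on Day 0 (0.65 ± 0.25, adjusted p = 0.0387), the reverse of Cdkn1a in both intervals. The return on Day 0.25 did not hold without replicate 1 of Day 0 (adjusted p = 0.0781), replicate 2 of Day 0 (0.0895), replicate 3 of Day 0 (0.0729), replicate 1 of Day 0.25 (0.121) or replicate 3 of Day 0.25 (0.144), with the replicate block (0.052) or without the level filter (0.118).

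The later fall of Rbl1 passed in 2 successive intervals. Day 2 had 183 ± 59.4 and Day 1 283 ± 4.76 (-0.68 ± 0.22, adjusted p = 0.0447), and Day 3 had 86.8 ± 12.3 and Day 2 183 ± 59.4 (-1.04 ± 0.25, adjusted p = 0.0175). The first call was lost without replicate 1 of Day 1 (adjusted p = 0.13), replicate 2 of Day 1 (0.117), replicate 3 of Day 1 (0.0921) or replicate 1 of Day 2 (0.114), and without the level filter (0.0756). The other was lost without replicate 3 of Day 2 (0.119), replicate 1 of Day 3 (0.056) or replicate 3 of Day 3 (0.0807), in a fit to the 6 arrays alone (0.0802) and without the level filter (0.0585). The brightest of the untested Rbl1 probe sets had 59.3 ± 4.21 on Day -1 and 9.07 ± 1.36 on Day 5, and an r of 0.905 with the tested one over the 24 arrays.

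The window before the start of Rbl1 is shown because no other window searched of a tested member gene, Rb1 not among them, held an E2F site, the motif found in 1.86% of all promoter windows. The window is set beside that of Rbl2, its closest relative in the family. Capitals again mark the motifs named above, and both sequences are from RefSeq on GRCm38.p6.
Rbl1, chr2:157204535-157204784, minus strand: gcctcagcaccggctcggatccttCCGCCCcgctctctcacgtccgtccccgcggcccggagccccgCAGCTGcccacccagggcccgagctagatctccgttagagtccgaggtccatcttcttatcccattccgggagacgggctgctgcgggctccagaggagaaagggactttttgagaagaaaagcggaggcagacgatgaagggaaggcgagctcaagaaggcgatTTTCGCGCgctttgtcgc
Rbl2, chr8:91069807-91070056, plus strand: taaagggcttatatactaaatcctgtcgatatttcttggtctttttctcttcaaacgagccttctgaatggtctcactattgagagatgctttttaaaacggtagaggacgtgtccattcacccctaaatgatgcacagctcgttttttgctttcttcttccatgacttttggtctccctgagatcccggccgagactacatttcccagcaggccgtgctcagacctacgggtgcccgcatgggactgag
The E2F site of Rbl1, TTTCGCGC, lay 18 to 11 bases before the start, with an E-box, CAGCTG, at 183 to 178 and a GC box on the other strand at 226 to 221. The window of Rbl2 held none of the motifs searched, which says only that these letters are not in it. Among the remaining members an E2F site was found before the upstream start of Cdkn2a alone, a gene with no detectable signal here.

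Rbl2 (Entrez gene 19651), the gene of p130, the pocket protein of resting cells, had the smallest differences among the pocket proteins on Day 5 against Day -1. Its brighter probe set had 313, 406 and 331 on Day -1, 361, 334 and 291 on Day 0, 427, 308 and 449 on Day 0.25, 389.9, 336 and 386 on Day 1, 527, 419 and 513 on Day 2, 414, 422 and 405 on Day 3, 449.8, 481 and 307 on Day 4 and 480.0, 545 and 328 on Day 5. All neighbours in the order of its means overlapped, and it was the only tested member probe set that missed the F test (adjusted p = 0.133). On Day 2 against Day 1 it passed narrowly, with 486 ± 58.8 on Day 2 and 371 ± 30.2 on Day 1 (0.39 ± 0.13, adjusted p = 0.049). That call was lost without replicate 1 of Day 1 (adjusted p = 0.112), replicate 2 of Day 1 (0.182), replicate 3 of Day 1 (0.0807), replicate 1 of Day 2 (0.16) or replicate 3 of Day 2 (0.137), in the fit to all 24 arrays (0.0994) and without the level filter (0.0649). On Day 5 against Day -1 the difference was 0.34 ± 0.19, with a 95% interval of -0.05 to 0.73 and an adjusted p of 0.111, and it passed without replicate 3 of Day 5 (0.0116) and after quantile normalization (0.0473).

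The dimmer probe set of Rbl2 had 93.8, 142 and 101 on Day -1, 109, 125 and 99 on Day 0, 161, 106 and 174 on Day 0.25, 120.4, 119 and 134 on Day 1, 205, 126 and 197 on Day 2, 160.3, 172 and 163 on Day 3, 157, 169.7 and 137 on Day 4 and 196, 199.6 and 139 on Day 5. It was higher on Day 5, at 178 ± 34.1, than on Day -1, at 112 ± 26.1 (0.67 ± 0.20, adjusted p = 0.0063), although Day 5 replicate 3, at 139, was below Day -1 replicate 2, at 142. On Day 2 against Day 1 the difference was 0.47 ± 0.19 (adjusted p = 0.0909). Without Day 2 replicate 2 the adjusted p was 0.00121, and with the replicate block it was 0.0377.

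**Figure D3:**
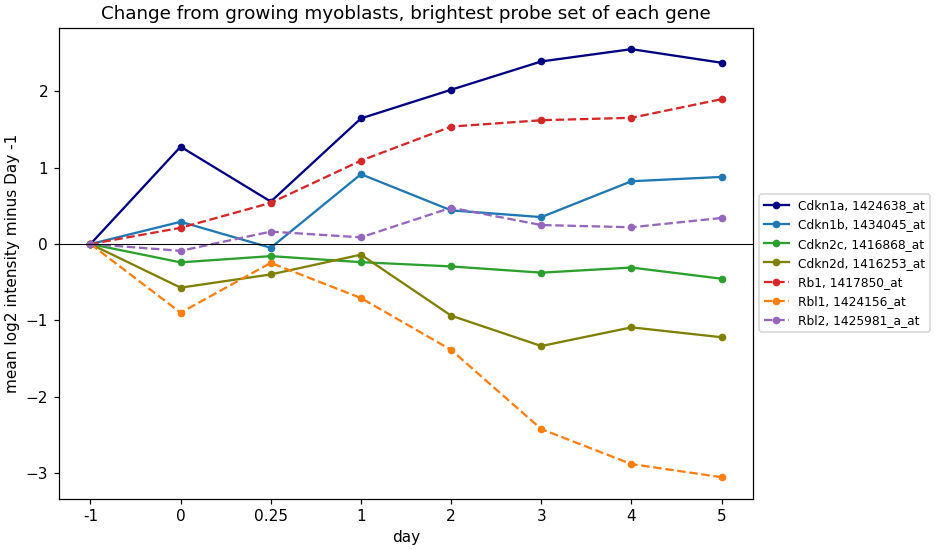
Mean log2 intensity of each day minus that of Day -1 for the brightest probe set of the 7 tested genes (solid lines, CDK inhibitors; dashed lines, pocket proteins), with evenly spaced days. By Day 5 Cdkn1a stands at 2.37 and Rb1 at 1.90, while Rbl1 is at -3.05 and Cdkn2d at -1.22.

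Day 2 against Day 1, the interval that the study compared in most detail, therefore held 4 member calls, in 4 genes. Cdkn1a and Rbl2 were each called higher through 1 of their probe sets, and Cdkn2d and Rbl1 were lower. Of the 9 probe sets tested, 8 had an unadjusted p under 0.05, and Cdkn2c alone did not. The share of all probe sets at that unadjusted level is not given here for any interval. Already at an adjusted p under 0.05, 19% of all were higher and 17.3% lower, so nothing is read from the count of 8. The count depended on single arrays, with 7 calls without Day 2 replicate 2, 1 without Day 1 replicate 1, replicate 2 of Day 1 or Day 2 replicate 1, 2 without Day 1 replicate 3 and 3 without Day 2 replicate 3. It was 8 with the replicate number as a block and 1 without the level filter. Over all probe sets the calls moved in the same way, with 4588 as fitted, 7697 without Day 2 replicate 2, 2260 without Day 1 replicate 1, 2351 without Day 1 replicate 2 and 2577 without Day 2 replicate 1. Between Day 0.25 and Day 0, leaving out replicate 2 of Day 0.25 gave 7 member calls in place of 4. With 3 arrays on each side an exact permutation test has 0.1 as its smallest p, and no single member was tested that way.

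**Figure D4:**
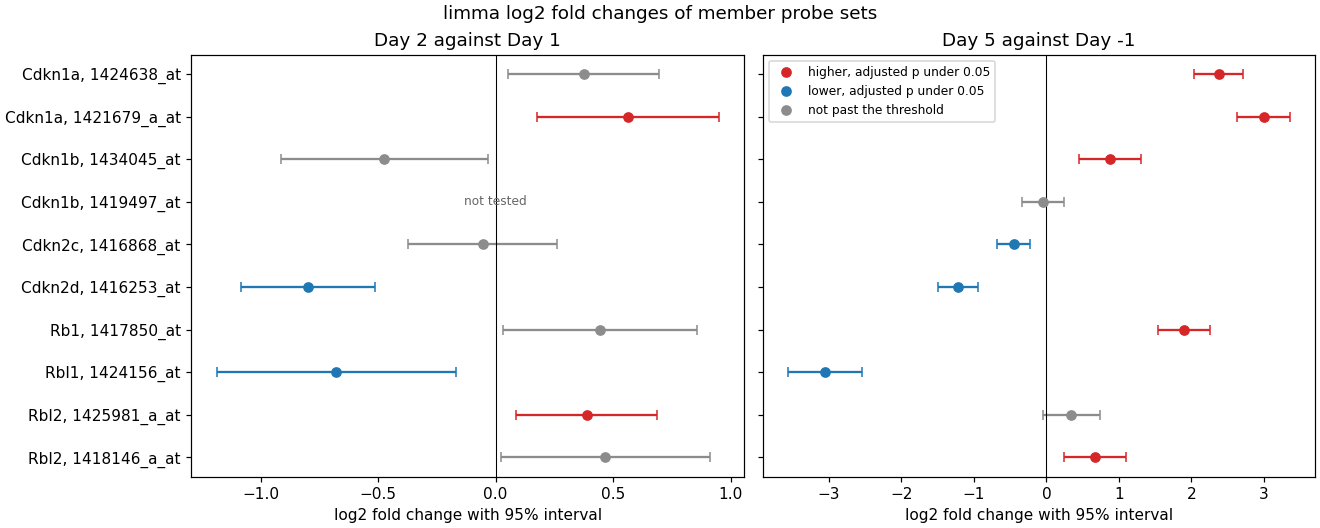
Log2 differences of the tested member probe sets with 95% intervals from limma, for Day 2 against Day 1 (left) and Day 5 against Day -1 (right), on axes of different range. Red is higher and blue lower on the later day at an adjusted p under 0.05, and grey missed the threshold; Cdkn2d and Rbl1 are lower in both panels, and the dim probe set of Cdkn1b was not tested on the left.

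The genes that these proteins act on were counted with 1 probe set per gene, the one with the highest mean. On Day 2 against Day 1, Ccne1, Ccne2, Cdc6, Cdc45, Gins1, Gins2 and Foxm1 passed the level filter through Day 1 alone. Among the p53 targets, Sesn2 passed it through Day 2 alone. For such genes the filter favours a call in 1 direction, and their calls in this interval are given as a description. For Day 5 against Day -1 a mean of 100 at any time point was enough. Genes below 100 on Day 5 included Ccne2, Ccna2, E2f7, E2f8, Foxm1, Lin9, Dtl, Tk1, Cdc6, Cdc45, Pola1, Gins1 and Gins2. Tfdp2, Rnf123 and Sesn2 were among those below 100 on Day -1. The same limit applies to them, and their calls in that comparison are a description too. Among all genes with a tested probe set, 31.6% were higher and 38.4% lower on Day 5 than on Day -1, with a median log2 difference of -0.08, and 19.6% were higher and 16.8% lower on Day 2 than on Day 1, with a median of -0.000584. Of 11 cyclins and cyclin-dependent kinases tested, 2 were higher and 8 lower on Day 5 against Day -1, with a median of -2.07, and likewise 2 and 8 on Day 2 against Day 1, with a median of -1.07. The genes that were higher were Ccnd3 and Ccnd2, both D-type cyclins that pair with Cdk4 and Cdk6. Ccnd3 had 2749 ± 193 on Day 5 and 945 ± 64.3 on Day -1 (1.54, adjusted p = 5.66e-12), and Ccnd2 had 696 ± 63.7 on Day 5 and 543 ± 89.9 on Day -1 (0.37, adjusted p = 0.0476). The largest falls were those of Ccna2, the cyclin of S phase, with 52.7 ± 21 on Day 5 and 1710.1 ± 97.6 on Day -1 (-5.10, adjusted p = 3.80e-11), and Ccne2, a cyclin of Cdk2, with 15 ± 1.94 on Day 5 and 455 ± 40.2 on Day -1 (-4.93, adjusted p = 1.03e-10). In the interval of Day 2 against Day 1 Ccne2 (-2.36, adjusted p = 9.70e-04) and Ccnb2, a cyclin of mitosis (-1.94, adjusted p = 6.34e-04), fell most, and Ccnd2 (0.58, adjusted p = 0.0273) and Ccnd3 (0.47, adjusted p = 0.00905) were again higher.

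Of the 9 tested genes of E2F and DP factors, the partners of the pocket proteins, 2 were higher and 7 lower on Day 5 against Day -1, with a median of -1.21, and 2 higher and 5 lower on Day 2 against Day 1, with a median of -0.42. E2f7 and E2f8, repressors that do not bind pocket proteins, fell most over the course. E2f7 had 18.5 ± 11.7 on Day 5 and 745 ± 72.3 on Day -1 (-5.51, adjusted p = 9.62e-10), and E2f8 had 57.8 ± 19.5 on Day 5 and 775 ± 63.4 on Day -1 (-3.80, adjusted p = 2.75e-12). Tfdp2, which codes for a DP partner of E2F, was higher, with 284 ± 47.7 on Day 5 and 99.2 ± 10.7 on Day -1 (1.51, adjusted p = 3.41e-07), and so was E2f6, a repressor without a pocket protein binding site (0.33, adjusted p = 0.00562). For Day 2 against Day 1 the lower genes with the largest differences were E2f7 (-1.37, adjusted p = 0.00833) and E2f1 (-0.73, adjusted p = 0.0111), and Tfdp2 (0.97, adjusted p = 0.0139) and E2f6 (0.41, adjusted p = 0.0229) were higher.

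All 17 tested E2F targets of DNA replication were lower on Day 5 than on Day -1, with a median of -3.16, and all 17 were also lower on Day 2 than on Day 1, with a median of -1.13. Tk1, thymidine kinase, had 10.0 ± 7.24 on Day 5 and 1131 ± 180.0 on Day -1 (-7.04, adjusted p = 9.51e-12), and Cdc6, a loader of the replicative helicase, had 9.37 ± 2.66 on Day 5 and 626 ± 48.1 on Day -1 (-6.10, adjusted p = 6.24e-11). The largest falls on Day 2 against Day 1 were those of Gins2 (-2.39, adjusted p = 0.00113) and Gins1 (-2.24, adjusted p = 0.00182), subunits of the replicative helicase. Both passed the level filter through Day 1 alone, with Day 2 means of 36.0 for Gins2 and 28.6 for Gins1. Cdc6 and Cdc45, also among the 17, passed it in the same way. Rbl1 was lower in the same comparisons, while Rb1 was higher on Day 5 than on Day -1.

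The MuvB core joins p107 or p130 and E2F in the DREAM repressor complex, and in dividing cells it works with B-Myb and FoxM1. Of 5 tested genes of this list, 3 were lower and 0 higher on Day 5 against Day -1, with a median of -1.13. Foxm1 had 11.5 ± 3.88 on Day 5 and 398 ± 63.8 on Day -1 (-5.16, adjusted p = 9.25e-11), and Lin9, a subunit of the core, had 33.5 ± 1.33 on Day 5 and 159.6 ± 13.9 on Day -1 (-2.25, adjusted p = 2.20e-09). Foxm1 alone of the 4 tested on Day 2 against Day 1 was lower (-1.72, adjusted p = 0.00149). Of the 5 tested chromatin partners of pocket proteins, 5 were lower on Day 5 against Day -1 and 4 on Day 2 against Day 1, with medians of -0.73 and -0.69. Dnmt1, a DNA methyltransferase, had 159 ± 15.7 on Day 5 and 824 ± 115 on Day -1 (-2.37, adjusted p = 1.95e-09), and Hdac1, a histone deacetylase, had 321 ± 28.7 on Day 5 and 765 ± 99.3 on Day -1 (-1.25, adjusted p = 2.82e-09), and both were lower on Day 2 than on Day 1 (-0.91, adjusted p = 0.00986 and -0.80, adjusted p = 0.00235).

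Genes of the turnover of p21 and p27 were split. Of 8 tested, 3 were higher and 3 lower on Day 5 against Day -1, with a median of 0.16, and 1 was higher and 3 lower on Day 2 against Day 1, with a median of 0.02. With the probe set of the highest absolute t for each gene the median was 0.30 on Day 5 against Day -1 and -0.11 on Day 2 against Day 1, where its sign therefore depends on that choice. Dtl, the substrate receptor through which Cul4 marks p21, had 32 ± 5.67 on Day 5 and 551 ± 85.9 on Day -1 (-4.11, adjusted p = 1.11e-09). Skp2, the receptor through which SCF marks p27, had 129.8 ± 21 on Day 5 and 794 ± 119 on Day -1 (-2.62, adjusted p = 2.57e-11). Rnf123, a subunit of the ligase that marks p27 in the cytoplasm, was higher, with 185 ± 26.7 on Day 5 and 80.1 ± 13.8 on Day -1 (1.21, adjusted p = 2.33e-07), as was Cul4a (0.89, adjusted p = 3.42e-07). Between Day 2 and Day 1 Cks1b, the helper of Skp2 (-1.07, adjusted p = 0.0019), and Dtl (-0.84, adjusted p = 0.0293) were lower and Rnf123 (0.50, adjusted p = 0.0301) was higher. The RNA of these genes says nothing of the amount of p21 or p27 protein.

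Genes listed as other targets of p53, a textbook activator of Cdkn1a, were mostly higher on Day 5 than on Day -1. Trp53, the gene of p53, had no tested probe set, and the list was chosen with earlier results of these data known. Whether p53 had a part in the course of Cdkn1a was not tested. Of 13 tested, 12 were higher and 0 lower on Day 5 against Day -1, with a median of 1.04, and 8 were higher and 0 lower on Day 2 against Day 1, with a median of 0.49. Gadd45a, a gene of growth arrest, had 7459.5 ± 267 on Day 5 and 441 ± 34.4 on Day -1 (4.08, adjusted p = 1.71e-16), and Trp53inp1 had 937 ± 169 on Day 5 and 107 ± 17.1 on Day -1 (3.13, adjusted p = 5.79e-13). The largest rises on Day 2 against Day 1 were those of Zmat3 (1.02, adjusted p = 0.0174) and Gadd45a (0.99, adjusted p = 0.00167). Of the 7 tested myogenic factors, 6 were higher and 1 lower on Day 5 against Day -1, with a median of 1.38. On Day 2 against Day 1, 4 were higher and 2 lower, with a median of 0.60. Myod1 was higher on Day 5 than on Day -1 (0.64, adjusted p = 2.86e-06). It was not called on Day 2 against Day 1 (0.09, adjusted p = 0.518). Myog, the gene of myogenin, had 9369 ± 391 on Day 5 and 404 ± 82.9 on Day -1 (4.56, adjusted p = 3.78e-17), and Mef2c had 1865 ± 431 on Day 5 and 116 ± 20.8 on Day -1 (4.00, adjusted p = 1.98e-12), while Tcf3, the gene of the E proteins E12 and E47, was lower (-1.07, adjusted p = 7.55e-09). Between Day 2 and Day 1 Mef2c (2.13, adjusted p = 8.34e-04) and Mef2d (0.87, adjusted p = 0.00327) rose most, and Myf5 (-1.03, adjusted p = 7.21e-04) and Tcf3 (-0.46, adjusted p = 0.0171) were lower.

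The genes closest in pattern were sought over the 8 time point means of log2 intensity, among 3450 genes that changed over the course with a 2-fold range or more. For the brighter probe set of Cdkn1a they were Pgm5 (r = 0.997), Myoz2 (0.995) and Prkag3 (0.995). For Rb1 they were Lmcd1 (0.995), F3 (0.994) and Bgn (0.993). For Rbl1 they were Plk4 (0.999), Incenp (0.997) and Sgo1 (0.997), and for Cdkn2d Dhx9 (0.982), Neil3 (0.980) and Zfp367 (0.978). With 8 means that share a smooth course, values near 1 are common, and these are a description with no test. Between members the 8 means of Cdkn1a had an r of 0.922 with Rb1, -0.909 with Rbl1 and -0.857 with Cdkn2d.

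Within a time point the members did not scatter independently. When the time point mean was taken from each log2 value, all 15 pairs of inhibitor probe sets had a positive r over the 24 arrays, between 0.482 and 0.910, and all 6 pairs of pocket protein probe sets had a positive r, between 0.379 and 0.850. All 24 pairs of an inhibitor with a pocket protein had a negative r, between -0.898 and -0.333. These are deviations on the same arrays, some pairs are probe sets of the same gene, and they are given as a description. The first principal axis of such deviations over all tested probe sets held 50.3% of their sum of squares. Every inhibitor probe set had a positive r with that axis and every pocket protein probe set a negative one. The split therefore follows a pattern shared by many other probe sets and is not particular to these genes. On Day 0.25 replicate 2 and Day 2 replicate 2, all inhibitor probe sets lay above and all pocket protein probe sets below their time point means. Cdkn1a and Rb1, which rose together over the days, had an r of -0.693 in these deviations.

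**Figure D5:**
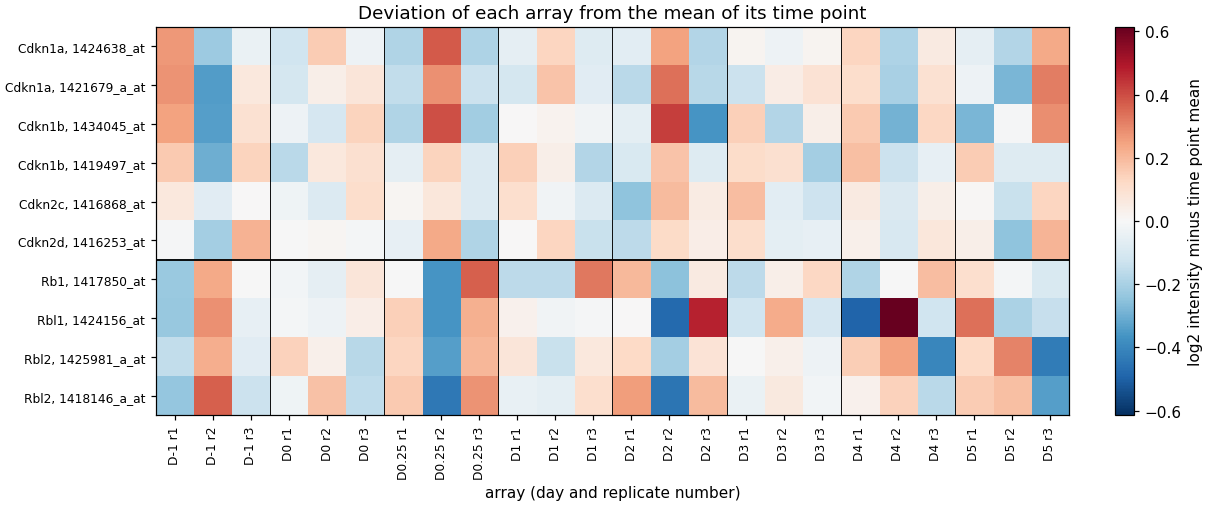
Log2 intensity of each of the 24 arrays minus the mean of its time point, for the 10 tested probe sets (rows; inhibitors above the line, pocket proteins below it) and arrays in order of day and replicate. Red is above and blue below the mean; on Day 2 replicate 2 the 6 inhibitor rows are red and the 4 pocket protein rows blue. The split follows a pattern shared by many other probe sets.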

How the data were processed

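RNA of C2C12 cells was measured on 24 arrays, grouped by day from the sample labels. The deposited values are intensities per probe set on a linear scale. Per the paper's methods, the authors computed them with GC-RMA, returned them to the linear scale and scaled each array to a common mean trimmed by 2%. The submitters' processing notes also name MAS5, with no role given. The 64 control probe sets were left out, and log2 intensities were fitted with limma 3.58.1 in R 4.3.3. Day 2 was compared with Day 1 on their 6 arrays, over the 12622 probe sets whose mean reached 100 on either day. The other comparisons and the F test came from a fit to all 24 arrays, over 13735 probe sets with such a mean at any time point. The fit was run on simulated data with independent noise for each probe set. That run checked the estimates of known differences, and it cannot tell how many false calls arise where probe sets share their noise. Array medians lay between 3.63 and 3.87, and the number of arrays limits the precision. Probe sets were named from the array's annotation, with 34945 assigned to 1 gene. The members and gene lists were chosen with earlier results of these data known. All probe sets of the members are named. In each list up to 2 genes past the threshold in each direction with the largest change are named, and for members with a 2-fold range that changed, the 3 genes closest in pattern. Alternatives were another set of arrays in the fit, the replicate number as a block, quantile normalization, a stricter level of 200, no level filter, values below 50 raised to 50, an intensity trend in the prior, the probe set with the highest absolute t for a gene, and leaving out each array in turn.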

Additional observations from a re-analysis of the deposited data

How the results depend on the processing

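The deviations of same-numbered arrays in 2 compared time points had an r between -0.561 and 0.555. The 3 deviations of a time point sum to 0, so these r cannot decide whether the numbers pair the samples. All 3 r were positive for Day 4 against Day 3 alone (0.35, 0.319 and 0.21). There the replicate block gave 116 calls over all probe sets in place of 156, and 0 members in both fits. With the replicate block the members called on Day 2 against Day 1 were 8 in place of 4. Without the level filter they were 1, and on Day 3 against Day 2 they were 0 in place of 1, as in a fit to the 6 arrays alone. In such 6-array fits all probe sets called were 153 for Day 3 against Day 2, 2 for Day 4 against Day 3 and 0 for Day 5 against Day 4. Leaving out 1 array gave 2246 to 4415 calls over all probe sets for Day 1 against Day 0.25, 2260 to 7697 for Day 2 against Day 1, 242 to 746 for Day 3 against Day 2, 17 to 559 for Day 4 against Day 3 and 113 to 937 for Day 5 against Day 4. It gave 3 to 7 member calls for Day 0.25 against Day 0, 1 to 7 for Day 2 against Day 1 and 0 to 1 for Day 3 against Day 2. The difference of the dim probe set of Cdkn1b on Day 5 against Day -1 turned to 0.00941 after quantile normalization and lay between -0.19 and 0.0363 without 1 array, and that of Cdkn2c on Day 2 against Day 1 lay between -0.15 and 0.0672. The cause was not tested. No called member changed sign in any alternative, and the calls of Day 0 against Day -1 and of Day 5 against Day -1 held in all that could test them. At a level of at least 200, the dim probe set of Cdkn1b and the dimmer one of Rbl2 were not tested. With the highest absolute t for a gene, 9 and 13 p53 targets were higher on Day 2 against Day 1 and on Day 5 against Day -1, and 4 turnover genes were higher on Day 5. Probe sets near the low end of the scale, those of Cdkn1c, Cdkn2a and Cdkn2b among them, give no measure of change.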

Other observations

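The deviations of the members from their time point means followed a pattern shared by many other probe sets. Over all 13735 tested probe sets, the first principal axis of these deviations held 50.3% of their sum of squares. Its r with the members over the 24 arrays was 0.926 for the brighter probe set of Cdkn1b, 0.883 and 0.837 for the brighter and dimmer ones of Cdkn1a, 0.762 for Cdkn2d, 0.736 for Cdkn2c and 0.598 for the dim one of Cdkn1b. For the pocket proteins it was -0.914 and -0.784 for the dimmer and brighter ones of Rbl2, -0.776 for Rbl1 and -0.771 for Rb1. The arrays farthest out on the positive side were Day 2 replicate 2 (0.423), Day 5 replicate 3 (0.369) and Day 0.25 replicate 2 (0.357), and the farthest on the negative side was Day -1 replicate 2 (-0.279), in units of the axis. What the axis stands for was not tested.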
